A study of Mus musculus with 9 samples.

Results

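Heat shock proteins and chaperones were followed in cells sorted from the retinas of mouse pups, through the 9 of 10 listed genes that the arrays could be read for. The list holds 10 genes by name, and every probe set (a group of short oligonucleotides for 1 transcript) annotated to exactly 1 of these symbols was taken. This gave 16 probe sets for 9 genes, out of 36701 probe sets in all and 15964 genes with a symbol of their own. Of the 16, 10 sat on array design A, 1 on B and 5 on C. Hsp90ab1, the constitutive cytosolic Hsp90, had no such probe set and was not analysed here. No probe set annotated to several symbols held a member.

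All arrays carried RNA of GFP-positive cells from pups homozygous for a Tie2-GFP transgene. The pups were collected on postnatal day 8. They had received APB5, an antibody that neutralizes PDGFRb, by intraperitoneal injection between day 0 and day 7. That receptor draws pericytes to capillaries, and the series title calls these retinas free of pericyte coverage. Each of the designs A, B and C of the Affymetrix MG-U74v2 set was hybridised on 3 arrays. No array of untreated animals is part of the data, so an effect of the antibody could not be read, and no test between conditions was made. The Tie2 promoter is also active in some blood cells, the retinas were pooled before sorting, and the labels do not say whether the 3 arrays of a design came from separate pools. All spreads below are between arrays and may be technical. The dissociation included repeated incubations of 60 min at 37 °C between dissection and lysis.

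Most endothelial markers lay high, and the lists of other cell types lay below all probe sets by their counts. Of 22 probe sets for 12 endothelial marker genes, 20 lay above the 40th percentile of their arrays, used as the floor throughout, against 56.5% of all probe sets, and their median percentile was 94.9. The 2 that did not exceed it were a probe set of Vwf, at percentile 33.5, and 1 of Egfl7, at 17.9. Mural markers had 8 of 17 probe sets above the floor at a median of 39.6, retinal neurons 6 of 14 at 38.5, glia 8 of 20 at 35.9, and macrophages and microglia 7 of 17 at 35.1. Single probe sets of these lists were high, at percentile 98.8 for the bipolar cell gene Pcp2, 89.5 and 86.8 for Apoe and 87.2 for Csf1r, and their part in the chaperone signals was not tested. Of 17 probe sets for 10 immediate early genes, which dissociation is known to induce, 13 lay above the floor and 5 above the 90th percentile. These shares were 76.5% and 29.4%, against 56.5% and 8.71% of all probe sets. No array of undissociated tissue was analysed here, and the part of the dissociation in the chaperone signals was not tested. In sorted bulk RNA, fewer cells of a type and less RNA per cell cannot be told apart.

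Molecular chaperones bind unfolded protein and release it in cycles driven by ATP. Hsp70 proteins hold short hydrophobic stretches, J-domain proteins deliver substrates to them, nucleotide exchange factors reset them, Hsp90 proteins take over partly folded clients, and small heat shock proteins hold aggregating protein without ATP. When cytosolic proteins unfold, the heat shock factor HSF1 binds inverted repeats of GAA and TTC, the heat shock element, and switches on the inducible members. Unfolded protein in the endoplasmic reticulum acts instead through the ER stress element, which holds a CCAAT box and the letters CCACG. In endothelial cells chaperones are also known to hold signalling proteins, nitric oxide synthase among them, which binds Hsp90.

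The start regions of 5 members with a match to the heat shock element or the ER stress element are printed. The inducible cytosolic members and the ER member are textbook targets of these different elements. Dnajb1, also inducible and cytosolic, held no match to either element in its windows and is not printed. The sequences are RefSeq windows of build GRCm38.p6, from 250 bases before to 50 after the annotated start, read 5′ to 3′ on the strand of the gene. Such windows were matched for 6 of the 10 listed genes. Capitals mark the head-to-head or tail-to-tail heat shock letters GAANNTTC and TTCNNGAA in Hspa1a (chr17:34972107-34972406, minus strand), Hsph1 (chr5:149636266-149636565, minus strand) and Hspb1 (chr5:135887669-135887968, plus strand). In Hspa5 (chr2:34771840-34772139, plus strand) capitals mark the ER stress element, searched as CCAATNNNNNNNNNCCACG. In Hspa1b (chr17:34959189-34959488, minus strand) they mark instead the positions that differ from Hspa1a.
Hspa1a: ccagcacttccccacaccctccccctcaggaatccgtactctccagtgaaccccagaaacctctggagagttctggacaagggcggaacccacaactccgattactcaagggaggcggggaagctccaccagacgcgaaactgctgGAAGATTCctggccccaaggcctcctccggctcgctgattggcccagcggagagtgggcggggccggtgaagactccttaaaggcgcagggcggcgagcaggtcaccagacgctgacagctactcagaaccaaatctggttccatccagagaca
Hspa1b: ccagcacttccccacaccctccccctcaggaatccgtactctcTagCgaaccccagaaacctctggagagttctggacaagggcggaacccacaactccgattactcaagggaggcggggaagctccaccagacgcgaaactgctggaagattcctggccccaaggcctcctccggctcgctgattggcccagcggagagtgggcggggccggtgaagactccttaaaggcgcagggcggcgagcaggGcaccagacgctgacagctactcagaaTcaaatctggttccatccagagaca
Hsph1: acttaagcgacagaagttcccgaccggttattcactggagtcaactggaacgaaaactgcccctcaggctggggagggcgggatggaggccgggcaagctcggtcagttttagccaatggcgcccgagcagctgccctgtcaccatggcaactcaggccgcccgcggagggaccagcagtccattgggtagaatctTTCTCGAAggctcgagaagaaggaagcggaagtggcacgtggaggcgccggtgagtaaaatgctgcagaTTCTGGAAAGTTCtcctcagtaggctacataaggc
Hspb1: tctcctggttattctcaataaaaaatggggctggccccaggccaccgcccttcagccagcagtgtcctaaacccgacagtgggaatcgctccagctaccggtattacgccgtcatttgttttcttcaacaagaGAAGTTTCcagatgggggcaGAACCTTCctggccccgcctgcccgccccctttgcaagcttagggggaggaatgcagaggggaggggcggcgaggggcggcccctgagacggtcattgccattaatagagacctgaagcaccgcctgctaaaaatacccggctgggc
Hspa5: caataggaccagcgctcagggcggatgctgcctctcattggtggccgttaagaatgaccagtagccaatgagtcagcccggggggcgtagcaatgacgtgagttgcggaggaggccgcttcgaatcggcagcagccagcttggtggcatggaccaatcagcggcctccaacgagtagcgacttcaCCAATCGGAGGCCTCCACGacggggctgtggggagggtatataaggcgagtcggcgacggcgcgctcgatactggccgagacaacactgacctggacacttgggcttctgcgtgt

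The Hspa1a and Hspa1b windows were the same at 296 of 300 positions, and in the gene table these genes are next to each other and beside Hspa1l on chromosome 17. Both strands were searched. At least 1 heat shock element match of either form lay in the windows of Hspa1a (1 match), Hspa1b (1), Hspb1 (2) and Hsph1 (3, of which 2 overlap), and in 15.1% of the 32851 promoter windows of the table. Both windows of Dnajb1 and the window of Hspa5 held none. The ER stress element matched in Hspa5 and in 0.119% of all windows. The CCAAT box matched 4 times in Hspa5, 2 times each in Hsph1 and in 1 of the windows of Dnajb1, and once each in Hspa1a and Hspa1b, and was found in 37.4% of all windows. A match describes the letters and is not a measured site.

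Inducible Hsp70 lay near the top of its arrays. Hspa1a, which encodes the stress-inducible cytosolic Hsp70 (probe set 93875_at), read 1656, 2217 and 1952 on design A. Its near copy Hspa1b read 1689, 1979 and 1808 there (probe set 100946_at). On both probe sets array 2 was the highest and array 1 the lowest. Each intensity was placed by its percentile, from 0 to 100, among all probe sets of its array. Hspa1a lay at percentile 99.5 ± 0.197 and Hspa1b at 99.4 ± 0.117 (SD, n = 3 arrays each). On design C, the Hspa1a probe set 167374_f_at, whose name marks it as shared within a sequence family, read 437, 419 and 438, at percentile 97.8 ± 0.296. Because the genes are near-identical, the authors' probes could read both transcripts, and the signals of Hspa1a and Hspa1b are uncertain as separate values.

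The constitutive Hsp70 members were also high on design A. Hspa8, the cytosolic Hsp70 of unstressed cells and the uncoating factor of clathrin vesicles, read 747, 829 and 721, at percentile 97.4 ± 0.0960 (SD, n = 3 arrays). Hspa5, the ER-resident Hsp70 (BiP) that also keeps the ER stress sensors inactive, read 1320.35, 1246 and 1245, at percentile 98.8 ± 0.0974. Its arrays 2 and 3 were nearly equal. Hspa9, the mitochondrial Hsp70 (mortalin) that pulls imported proteins into the matrix, read 1144, 1248 and 1154, at percentile 98.6 ± 0.0840. On design C its probe set 170001_at read 74.3, 76.8 and 94.5, at percentile 80.4 ± 2.998. A further Hspa9 probe set on design C, 171404_r_at, read 24.95, 26.6 and 33.4. That probe set lay at percentile 44.2 ± 6.34 and exceeded the floor on 2 of 3 arrays.

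The cytosolic partners of Hsp70 were at different heights. Hsph1, an Hsp110 that exchanges nucleotide on Hsp70, read 698, 709 and 568, at percentile 96.8 ± 0.292 (SD, n = 3 arrays), with array 3 lowest. Dnajb1, the inducible J-domain protein that hands substrates to Hsp70, read 181, 141 and 158 on design A (percentile 83.9 ± 2.38). On design C it read 39.2, 40.2 and 40.03 (percentile 57.9 ± 0.836). Both of its probe sets thus stood above the floor on all their arrays, and neither passed the 90th percentile.

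Hsp90aa1, the inducible cytosolic Hsp90, had 1 high probe set and 2 low ones. On design A probe set 95282_at read 733, 799 and 862, at percentile 97.5 ± 0.367 (SD, n = 3 arrays). On the same arrays probe set 161869_i_at, whose name marks it as incomplete, read 15.6, 14.6 and 13.3, at percentile 11.8 ± 2.17. On design B probe set 105094_at read 9.42, 7.58 and 8.73, at percentile 4.20 ± 0.996. The 3 probe sets of this gene therefore do not give 1 position for it.

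Hspb1, a small heat shock protein that binds unfolding protein and regulates actin filaments, was low on both designs. It read 28.8, 25.8 and 27.3 on design A, at percentile 31.0 ± 2.47, and 13.3, 12.65 and 16.1 on design C, at percentile 19.4 ± 3.33 (SD, n = 3 arrays each). No array placed either probe set above the floor. The design C probe set, 171538_f_at, is marked by its name as shared within a family. A low position does not show that the transcript was absent.

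**Figure D1:**
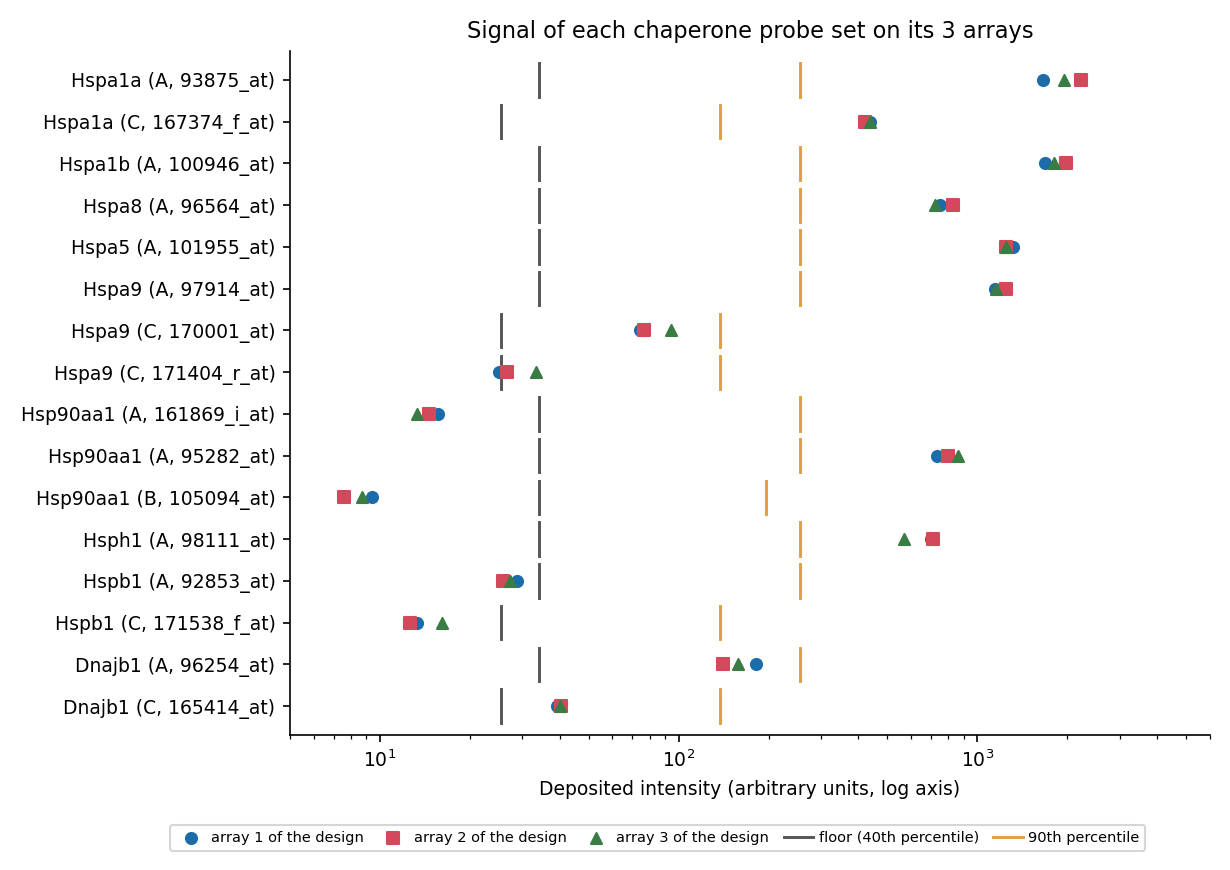
Deposited intensity of the 16 chaperone probe sets on a log axis, 1 row per probe set with its design and name, 1 marker per array; the dark tick is the mean floor (40th percentile) and the orange tick the mean 90th percentile of the design's arrays. The probe sets of Hspa1a, Hspa1b, Hspa8, Hspa5 and Hsph1, and 1 each of Hspa9 and Hsp90aa1, lie to the right of the orange tick, and both of Hspb1 lie to the left of the dark tick.

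Taking the members as a set, most probe sets were above the floor and 8 were near the top. The floor was the 40th percentile of each array, with values of 33.5 to 34.9 for design A, 33.6 to 35.1 for B and 25.3 to 25.4 for C, and no detection calls were used. Of the 16 probe sets, 11 exceeded it on all 3 arrays, against 56.5% of all 36701 probe sets. By gene, 8 of 9 had at least 1 probe set above the floor, against 72.4% of all genes, and the exception was Hspb1. Above the 90th percentile on all 3 arrays were 8 of 16 probe sets, from 7 genes, against 8.71% of all probe sets. On design A these were 7 of 10, against 8.95% there. The median percentile of the 16 probe sets was 90.4 (91.4, 89.1 and 90.6 when taken from arrays 1, 2 and 3), against 50.0 for all probe sets, which the scale fixes. The list is small and was chosen for its biology, but with earlier results of these data known, and its probe sets are of unequal efficiency. These counts therefore describe the list and were not tested.

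Probe sets of the same gene could disagree. Of the 5 members with several probe sets, 2 (Hspa9 and Hsp90aa1) had some above and some not above the floor on all arrays, against 57.1% of the 7645 genes with several probe sets. Hspa1a and Dnajb1 had all of theirs above it and Hspb1 had none. Because probes differ in hybridisation efficiency and in the part of the transcript they read, and because the designs were tabulated separately, each member probe set is given on its own and no order of the genes is drawn.

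Replicate arrays lay within 0.5 log2 units of each other for every member probe set. Arrays were compared on the log2 scale after each was centred on its own median. The highest array of a probe set exceeded the lowest by 0.44 log2 units at most (Hspa9, 171404_r_at) and by 0.05 at least (Dnajb1, design C). A range above 0.5 log2 units was found for 0 of 16 member probe sets, against 14.5% of all probe sets, and for 0 of the 11 above the floor, against 10.8% of all such probe sets. That count has no p-value, since arrays of 1 condition give no contrast. The median range was 0.23 log2 units for the members and 0.25 for all probe sets. Among probe sets of the same design within 0.5 log2 units of its own mean signal, Hspa1a on design A had a range of 0.40, against a median of 0.19 over 98 such probe sets, of which 83.7% had a smaller range. Hspa1b had a range of 0.21 against 0.20 over 107. Hspa5 had a range of 0.11 and Hspa9 on design A one of 0.12, and 12.2% and 13.0% of the probe sets of like signal had smaller ones. On design C the Hspa9 ranges were wider, 0.37 (170001_at) and 0.44 (171404_r_at), and 78.3% and 86.8% of the probe sets of like signal had smaller ones. Dnajb1 on design A had a range of 0.38, against a median of 0.28.

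**Figure D2:**
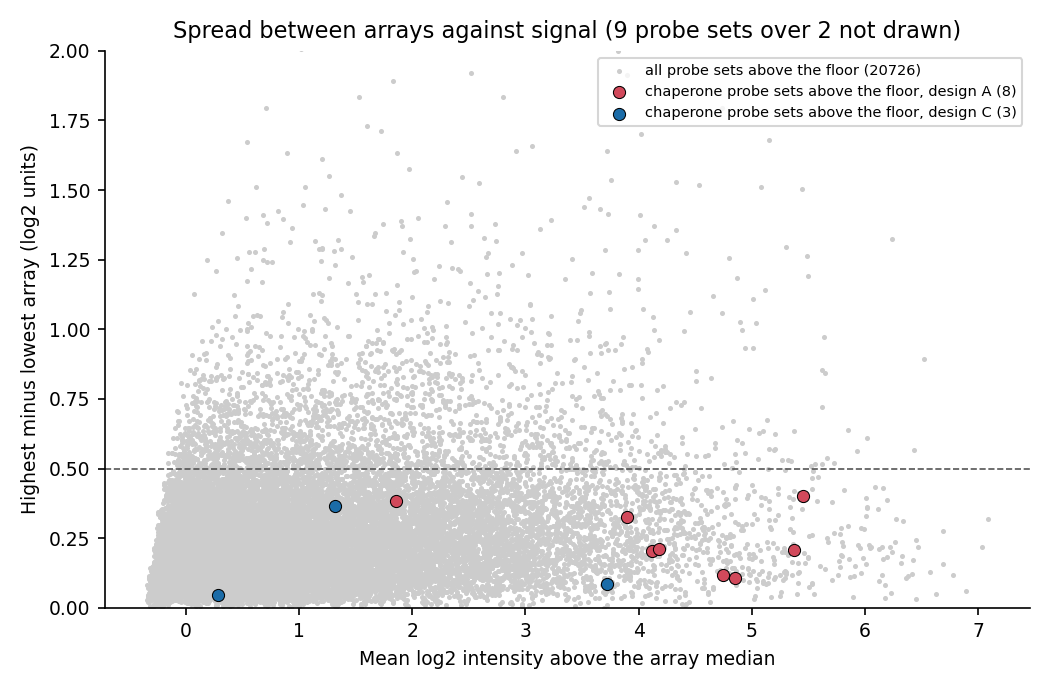
Range between the 3 arrays (highest minus lowest, log2 units) against mean log2 intensity above the array median, for all probe sets above the floor (grey) and the 11 chaperone probe sets above it (coloured by design); the dashed line is 0.5, and 9 grey points over 2 are not drawn. All 11 coloured points lie below the dashed line.

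On design A the members did not follow a common order of arrays. Of the 8 member probe sets above the floor on design A, 5 were highest on array 2 (Hspa1a, Hspa1b, Hspa8, Hspa9 and Hsph1), 2 on array 1 (Hspa5 and Dnajb1) and 1 on array 3 (Hsp90aa1). Over all probe sets above the floor on that design the shares were 44.8%, 33.2% and 22% for arrays 2, 1 and 3. Relative to array 1, array 2 was higher by 0.40 log2 units for Hspa1a, by 0.21 for Hspa1b and by 0.13 for Hspa8, and differed by -0.38 for Dnajb1, the J-domain partner of these proteins. The heat-inducible Hsph1 differed by 0.00 between these arrays and by -0.32 between array 3 and array 1, where Hsp90aa1 differed by 0.21. On design C, all 5 member probe sets were highest on array 3. Relative to array 1 it was higher by 0.02 for Hspa1a, 0.05 for Dnajb1, 0.29 for Hspb1, and 0.37 and 0.44 for Hspa9. Hspb1 and the Hspa9 probe set 171404_r_at were not above the floor on all 3 arrays. The share of all probe sets highest on array 3 of design C was not computed. On design A the Hspa9 difference between the same array numbers was -0.01. Array numbers are not known to mark the same RNA across designs.

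**Figure D3:**
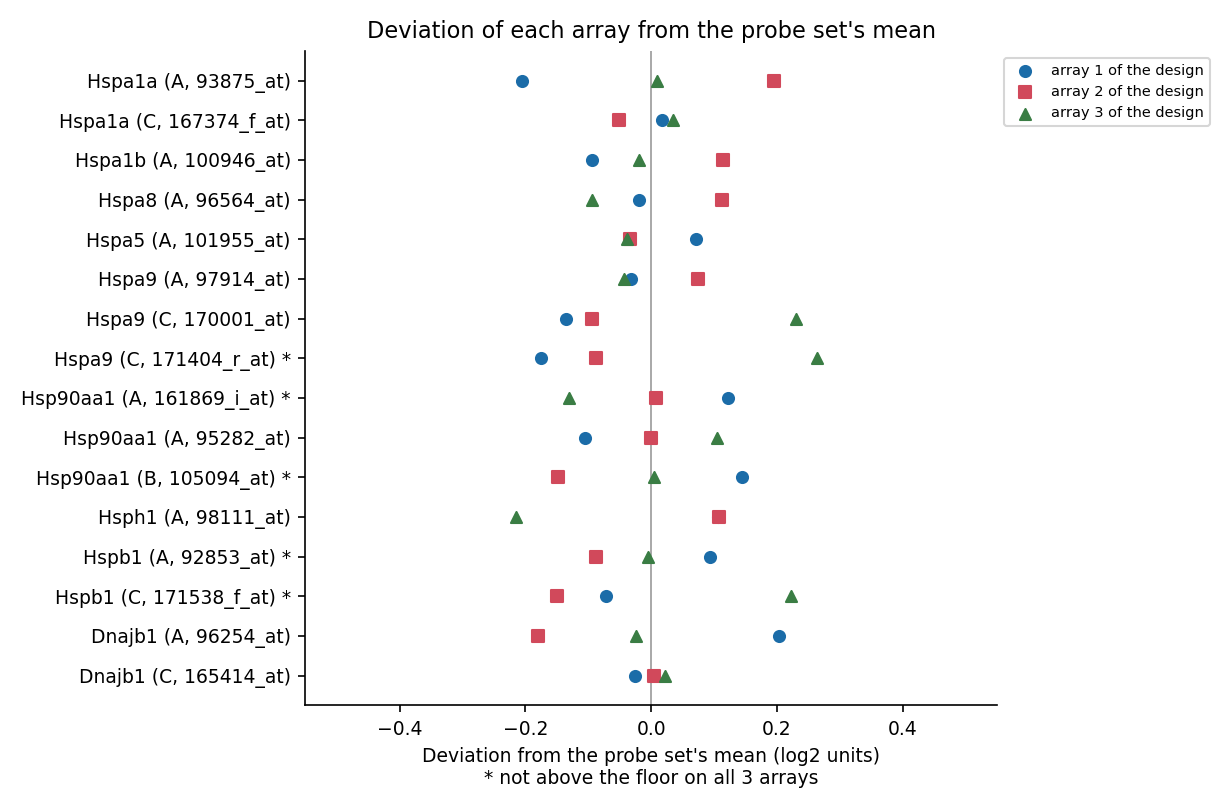
Deviation of each array from the mean of its probe set, in log2 units after centring arrays on their median, 1 row per chaperone probe set; an asterisk marks the 5 probe sets that were not above the floor on all 3 arrays. Array 2 is rightmost for Hspa1a, Hspa1b, Hspa8, Hspa9 and Hsph1 on design A and leftmost for Dnajb1 there.

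Other chaperones were described by lists that hold none of the members. Over all probe sets of the arrays, 56.5% exceeded the floor and 8.71% the 90th percentile on all 3 arrays, and the lists are read against these shares. Genes were picked from each list by the mean percentile of their probe sets on 1 design, A where they had one there, so they are examples and no order of genes, and each of their probe sets is given. Of 44 probe sets for 21 other heat-inducible genes and heat shock factors, 29 (65.9%) exceeded the floor and 11 (25%) the 90th percentile. Hspe1, the mitochondrial co-chaperonin, lay at percentile 98.95 ± 0.131 and Serpinh1, the collagen chaperone of the ER, at 97.9 ± 0.404 (SD, n = 3 arrays each), with 1 probe set each on design A. Hspd1, the chaperonin that works with Hspe1, had probe sets at percentiles 98.3 and 42.9. Cryab, a small heat shock protein of lens and muscle, had probe sets at 36.2 and 28.5. Hspa2, the testis-enriched Hsp70, lay at 26.5 ± 16.7 on design A, where it read 16, 39.4 and 20.2, and at 71.1 ± 6.94 on design B. Hsf1 itself was not analysed here, because no probe set carried its symbol alone.

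The chaperonin TRiC, which folds actin and tubulin, had 14 of 17 probe sets (82.4%, 8 genes) above the floor and 6 (35.3%) above the 90th percentile. Its subunit gene Cct7 lay at percentile 98.99 ± 0.0960 (SD, n = 3 arrays). Cct4 had probe sets at 96.2 (A) and 52.3 (B), and Tcp1 at 84.8 (A), 12.7 (A) and 31.3 (C), with the design in brackets. Hsp90 co-chaperones had 14 of 16 probe sets (87.5%) above the floor and 2 (12.5%) above the 90th percentile. Among them the cyclophilin Ppid lay at 96.9 ± 0.355. The kinase adaptor Cdc37 had probe sets at 88.0 (A) and 36.4 (B). Tsc1, better known as an inhibitor of mTOR signalling, had them at 73.7 (A), 6.05 (A) and 90.1 (C). Of 49 probe sets for 18 Hsp70 co-chaperones, 37 (75.5%) exceeded the floor and 5 (10.2%) the 90th percentile. The exchange factor Bag1 lay at 87.5 ± 0.915, the ubiquitin ligase Stub1 at 84.3 (A) and 88.2 (B), and the J-domain protein gene Dnajc1 at 74.0 (A), 19.4 (A), 70.5 (B) and 6.01 (B). The probe sets of this list above the 90th percentile belonged to Dnajc5, Dnajb2 and Bag5, which are named after their values were seen.

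The lists of companions of Hspa5 and Hspa9 in their organelles spread over most of the scale, in shares close to those of all probe sets. Hspe1, Hspd1 and Serpinh1 were counted in the heat-inducible list and are missing from these shares. The ER list also holds the stress genes Atf4, Ddit3, Xbp1 and Atf6. The Atf4 probe set, at percentile 94.3, is among those above the 90th percentile. The ER list had 28 of 45 probe sets (62.2%, 22 genes) above the floor and 5 (11.1%) above the 90th percentile. Manf, a secreted ER stress protein, lay at percentile 95.8 ± 0.241 and Hsp90b1, the Hsp90 of the ER, at 95.5 ± 0.824 (SD, n = 3 arrays each). Hyou1, an exchange factor of Hspa5, had probe sets at 4.06 on design A, where it read 5.98, 8.68 and 9.48, and at 89.6 on design B, where it read 195, 186 and 192. The mitochondrial list had 12 of 19 probe sets (63.2%, 8 genes) above the floor and 1 (5.26%) above the 90th percentile. That 1 belonged to Grpel2, the exchange factor of Hspa9, whose probe sets lay at 72.8 (A), 93.6 (C), 90.1 (C) and 56.5 (C). The protease subunit gene Clpp lay at 81.3 ± 1.66. Dnajc15, a J-domain protein of the import motor, had probe sets at 31.5 (A) and 85.8 (C). The median percentiles of the 6 lists, from 55.8 to 78.6, stand beside 90.4 for the member probe sets and 50.0 for all probe sets. These differences were not tested, because lists of unequal probe efficiency on 1 condition give no comparison over samples.

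**Figure D4:**
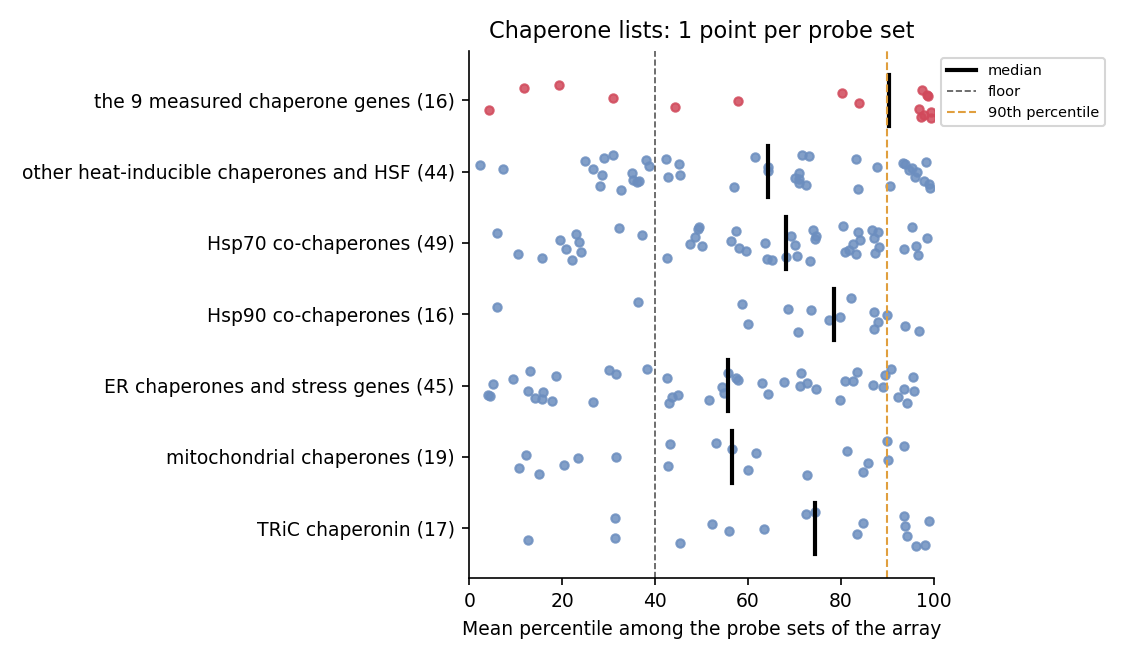
Mean percentile of each probe set (1 point) for the 9 measured chaperone genes, in red, and 6 lists of other chaperones, in blue, with the number of probe sets in brackets; black bars are medians and dashed lines mark the floor and the 90th percentile. The red points form a group of 8 above the 90th percentile and a tail down to 4.20, with a median of 90.4.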

How the data were processed

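Per the labels' protocols, total RNA of sorted cells was amplified, biotin-labelled and hybridised to MG-U74v2 arrays. The authors deposited 1 linear intensity per probe set and array, in 1 table per design. The summary algorithm, scaling and detection calls were not stated in the labels or tables, and background correction or scaling may affect low intensities most. Of the 36701 probe sets, 29131 had 1 symbol in the platform annotation, 724 several and 6846 none. Percentiles, floors and ranges were computed with Python 3.11.15, numpy 2.4.6 and pandas 2.3.3, each design apart. Before log2, 7 exact zeros were replaced by the lowest positive value of the same array, and arrays were centred on their median log2. The calculation was tested on simulated data. With 1 condition there was no test. The number of arrays limits the precision.

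Members and lists were chosen with earlier results of these data known, and the ER stress element was added as a motif afterwards. All members were named. Of each other list the 2 highest genes and the lowest were named, ranked by the mean over the gene's probe sets on 1 design (A where present, else B, else C), an order other probe sets can contradict. Added to these were Hsf1, Hsp90b1, Hspd1, Hspe1, Cryab and Serpinh1. Alternatives changed the floor, the ranking, the normalization, the probe sets and the replicates.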

Additional observations from a re-analysis of the deposited data

How the results depend on the processing

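No paired analysis was possible because the arrays of the 3 designs form no groups to compare. The count above the floor was 13 with the floor at the 25th percentile, where Hspb1 on design A also passed, and 10 at the 60th. The count above the 90th percentile was 8 also at the 95th percentile and 9 at the 80th. Shares of all probe sets at these other thresholds were not computed, so the counts show only how many members passed. No member probe set exceeded a range of 0.5 log2 units under 50 added before logarithms, quantile normalization or values without centring. Plain probe sets alone gave a median percentile of 97.1 and 1 gene on both sides of the floor; the highest probe set per gene gave 97.5 and the mean per gene 96.8. No probe set with several symbols held a member, so adding these could change nothing. Updating symbols changed none of these values. Leaving out 1 array per design, the median ranged from 89.8 to 90.99, the count above the floor from 11 to 12 and the genes on both sides of it from 1 (without replicate 1, where all Hspa9 probe sets passed) to 2. Over the 3 designs pooled, 2, 5 and 4 member probe sets above the floor were highest on arrays 1, 2 and 3. Array numbers are not known to match across designs. With 1 array per design left out, the pooled count for array 1 ranged from 3 to 5 and for array 2 from 6 to 8. For array 3 it was 6, since fewer arrays compete. Without a floor the pooled counts were 5, 5 and 6. Design A alone gave the counts reported above, with 1 highest on array 3. Mitochondrial chaperones had 7 probe sets above a floor at the 60th percentile, where the share of all probe sets was likewise not computed. Low intensities limit what the probe sets of Hspb1 and the lower probe sets of Hsp90aa1 can show.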

Other observations

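Small heat shock proteins other than Hspb1 lay near the middle of the arrays. Their counts, from only 10 probe sets, were near the shares of all probe sets. This grouping was made after the values were seen. The 6 genes Cryab, Hspb2, Hspb3, Hspb6, Hspb7 and Hspb8 had 10 probe sets, of which 6 exceeded the floor and 0 the 90th percentile on all 3 arrays, against 56.5% and 8.71% of all probe sets. Their percentiles ran from 28.2 to 73.1, with a median of 45.3. The highest was Hspb6 on design B, which read 88.8, 76.6 and 92.5. J-domain proteins other than Dnajb1 were grouped in the same way. The group held only genes of the other chaperone lists whose symbols begin with Dnaj, and is not the whole family. It had 49 probe sets for 18 genes, of which 36 exceeded the floor and 8 the 90th percentile, against the same shares of all probe sets. The 8 came from the 6 genes Dnaja1, Dnajb2, Dnajb4, Dnajb6, Dnajb11 and Dnajc5. Dnaja1, a cytosolic partner of Hspa8, read 525, 513 and 607 on design A, at percentile 95.9 ± 0.772 (SD, n = 3 arrays).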
